A study of Mus musculus with 6 samples.

Results

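The genes described here carry cells through mitosis and cytokinesis. The list was given by gene symbol and held 48 genes, from the cyclin-dependent kinase that starts mitosis to the proteins that part the daughter cells. Of these, 47 were named on a probe set of a single gene and 46 passed the detection filter, among 10993 of 18193 genes on the array that did so. They were measured in epidermal basal cells of female C57BL/6 mice, labelled as 10 weeks old in a design that spans 8 to 12 weeks. Cells from trypsinised skin that stained for α6-integrin, the laminin receptor of basal keratinocytes, and excluded propidium iodide were sorted. Their RNA was measured on Affymetrix 3′ expression arrays of the mouse. The 3 groups of 2 arrays were ventral skin of virgin mice (virgin ventral), dorsal skin of pregnant mice at 16 days post-coitus (dpc16 dorsal) and ventral skin of pregnant mice at that day (dpc16 ventral). The labels name no transgene, deletion or drug in any group, and cells of virgin dorsal skin were not analysed here. The study asked what lets basal cells of the growing abdomen proliferate, so dpc16 ventral cells were set against each of the other groups.

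Entry into mitosis requires cyclin-dependent kinase 1 with cyclins A and B. Chromosomes then condense, kinetochores attach them to spindle microtubules, and the spindle checkpoint holds the anaphase-promoting complex until every chromosome is attached. A central spindle and a contractile ring finish the division. Transcripts of these genes are scarce in resting cells and most abundant in G2 and M, so in bulk RNA their level is a common readout of how many cells are cycling. In such samples fewer cycling cells and less RNA per cycling cell cannot be told apart. In the epidermis divisions are carried out mainly by the basal layer.

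On each array 47.2% to 53.3% of probe sets were called present, and all 10 markers of basal keratinocytes, among them Krt5, Krt14 and Itga6, were present on all 6 arrays. Those markers had a median log2 fold change of -0.03 against virgin ventral cells and of -0.09 against dpc16 dorsal cells. The labels do not say that the replicates came from separate mice, so each p-value covers only how far these arrays lay apart, and that spread may be technical. Same-numbered arrays of the groups share a prefix in their column headers whose meaning is not given, and values within replicate numbers are therefore printed beside the pooled ones, with the number as a block where that changes a call. The headers also name a slightly different day of gestation; the day in the labels was used. On replicate 2 of the dpc16 ventral and dorsal groups the ratio of 3′ to 5′ actin signal, a sign of RNA quality, was 3.90 and 4.47. It was 1.78 to 2.46 on the other arrays. Without replicate 2 of both dpc16 groups the median log2 fold change of the mitosis genes was 0.78 over dorsal and 0.59 over virgin cells. With all arrays it was 1.03 and 0.84. The part of RNA quality in the results was not tested.

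The mitosis genes stood higher in dpc16 ventral cells than in dpc16 dorsal cells almost without exception. All 46 had the higher mean, by a median log2 fold change of 1.03, or 2.04-fold, over a range from 0.07 to 1.44. Over all genes tested the median was -0.03. In 40 of the 46 both ventral arrays lay above both dorsal arrays, where 13.1% of all genes did so. At an unadjusted p under 0.05 there were 31 members, against 2.65% of all genes. After Benjamini-Hochberg adjustment over all genes, limma called 0 members, and the background was 0.0455% of all genes. The smallest adjusted p was 0.206, for Anln. Within replicate number 1 the median was 0.78, with 44 genes higher, and within number 2 it was 1.22, with 45 genes higher. With the number as a block limma called 1 member, Mki67, and 11 of all 10993 genes tested on the higher side.

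Against virgin ventral cells the genes were also higher, but the virgin arrays differed from each other by more than the group means did. The mean was higher in dpc16 ventral cells for 44 of 46 genes, with a median log2 fold change of 0.84 (1.79-fold, range -0.50 to 1.72), against 0.02 over all genes. In 24 genes both dpc16 ventral arrays lay above both virgin arrays, where 23.8% of all genes did so. There were 22 members at an unadjusted p under 0.05, against 6.18% of all genes. limma called 0 members after adjustment over all genes, with a background of 0.136%. The smallest adjusted p was 0.148, for Cdca8. Within replicate number 1 the median was 1.12 with 44 genes higher, and within number 2 it was 0.69 with 38 higher. With the number as a block limma called 5 members, Cdca5, Mki67, Pbk, Shcbp1 and Top2a, and 54 of all 10993 genes tested on the higher side. The value also depended on which virgin array was used, since the median was 0.39 without virgin replicate 1 and 1.41 without virgin replicate 2.

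**Figure D1:**
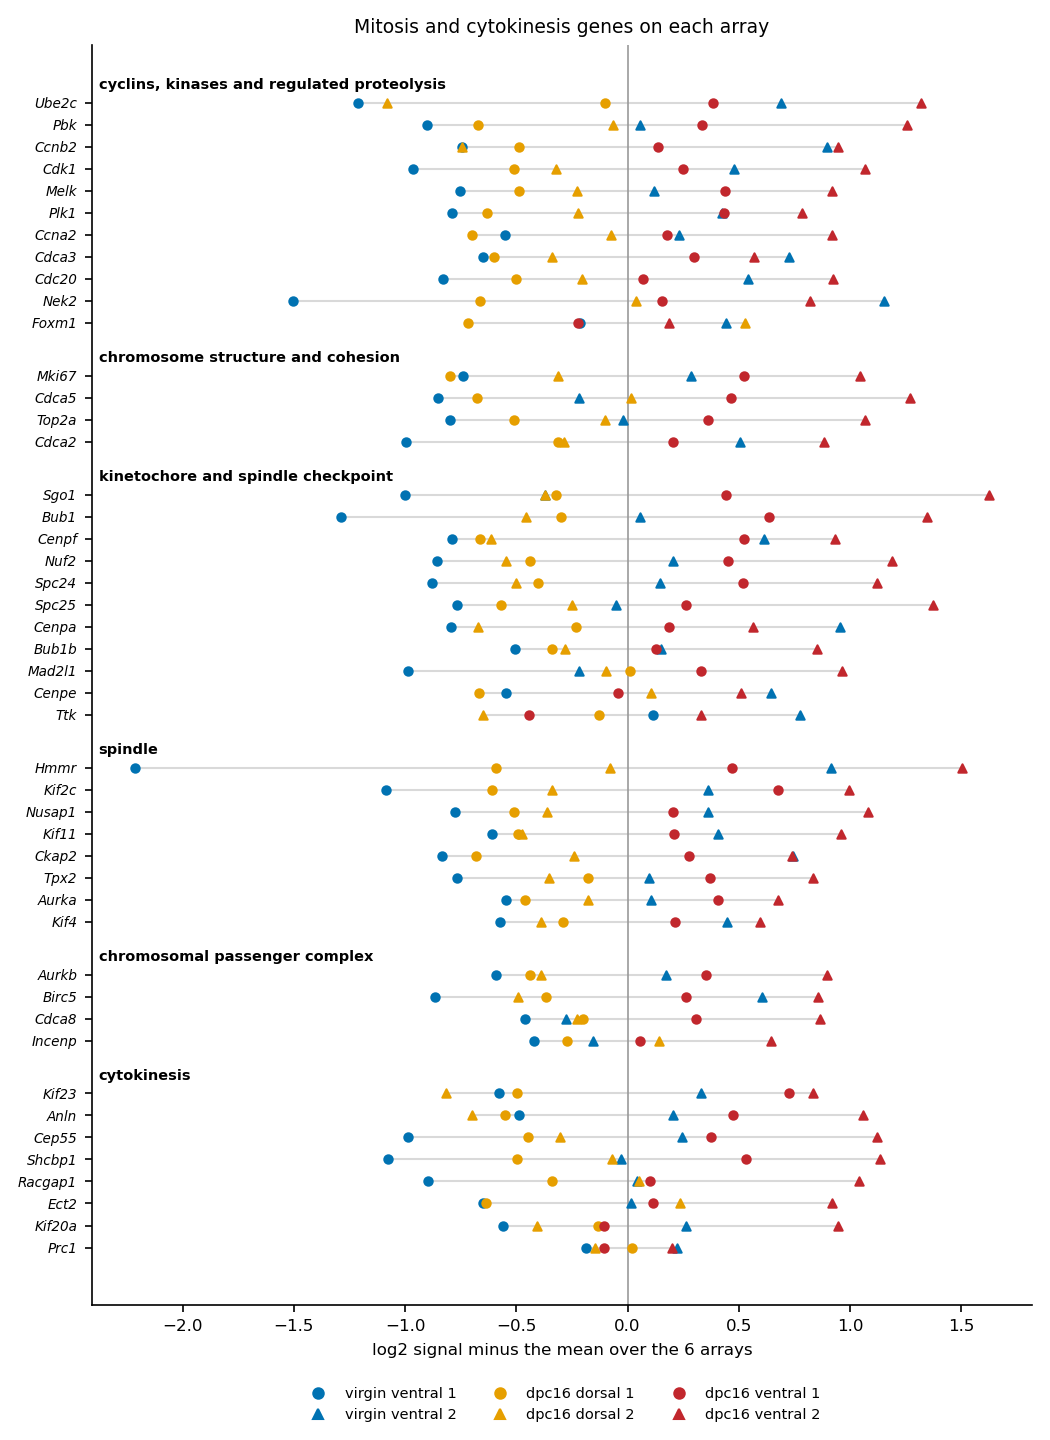
Log2 signal of each of the 46 genes on each of the 6 arrays, minus the mean of the gene over the arrays (x axis), with genes grouped by step of division and ordered by their fold change over dpc16 dorsal cells. Virgin replicate 1 (blue circle) is the lowest array for 38 genes and dpc16 ventral replicate 2 (red triangle) the highest for 38, while virgin replicate 2 (blue triangle) lies near dpc16 ventral replicate 1 (red circle).

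The difference between the virgin arrays ran through the whole list. On virgin replicate 2 all 46 genes were higher than on virgin replicate 1, by a median of 1.02 on the log2 scale (2.03-fold, range 0.18 to 3.13), while the median over all genes was -0.00. The widest gap was that of Hmmr, a microtubule-binding protein of the spindle, with signals of 29.1 and 255 on the probe set used. Further detected probe sets of Hmmr had smaller gaps, with signals of 43.9 and 99.1, and of 26.7 and 112. Virgin replicate 2 stood level with the lower of the dpc16 ventral arrays: 24 of 46 genes were higher on dpc16 ventral replicate 1, and the median difference was 0.03. The dpc16 ventral arrays differed in turn by a median of 0.65, with replicate 2 higher for all 46 genes. The dorsal arrays lay closer, at a median of 0.14 with 29 genes higher on replicate 2. In 22 genes both dpc16 ventral arrays lay above all 4 others, as they did for 7.59% of all genes.

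Markers of hair matrix and shaft, another dividing cell type of skin, also differed between the virgin arrays. Of 11 such genes 4 were present on virgin replicate 1 and 8 on replicate 2, and their summed signal was 1082 and 1562, against 1036 to 1209.5 on the dpc16 arrays. Of the shaft keratins, Krt33b, Krt34 and Krt86 were present on 0 arrays, Krt35 on 1, Krt31 on 3 and Krt33a on 4. Markers of mammary epithelium summed to 801 and 1307 on the virgin arrays and to 384 and 608 on the dorsal arrays. On the dpc16 ventral arrays they summed to 7403 and 1013, and Csn2 alone made up 6185 of the 7403. Of the 4 mammary markers tested, 2 were highest on dpc16 ventral replicate 1. The other 2, Krt8 and Krt18, were highest on virgin replicate 2, at 474 and 413, against 104 and 94.3 on dpc16 ventral replicate 1. Immune markers moved with the comparison with virgin cells. Of 9 Langerhans cell genes tested 8 were higher in dpc16 ventral cells without overlap (median 0.75), where 23.8% of all genes were. Csf1r was called (log2 fold change 1.76, adjusted p = 0.0406), as were 0.136% of all genes on the higher side. Langerhans markers summed to 7456 and 7909 on the virgin, 12193 and 10892 on the dorsal and 12037 and 8989 on the dpc16 ventral arrays. Epcam, the 1 gene of the 9 with a lower mean over virgin cells (-0.32), made up 3090.3 and 5137 of the virgin sums. The median log2 signal minus the gene mean was -0.34 and -0.82 on the virgin arrays. On virgin replicate 2 lay the lowest signal of 7 of the 9 genes. The median log2 fold change of the Langerhans genes over dorsal cells was 0.03. Of the markers of epidermal T cells Thy1 was called (3.07, adjusted p = 0.0104). Cd3g and Ptprc were also present on all 6 arrays, at 0.12 and 0.75 over virgin cells, and were not called. Cd3e, Cd3d, Cd247 and Cd7 were present on 0 arrays. Markers of the spinous layer had a median of -0.32 over virgin cells and -0.06 over dorsal cells. Over virgin cells 6 of 8 were lower without overlap, as were 2173 of 10993 genes tested, and 0 of the 8 were called. The part of these cell types in the mitosis values was not tested.

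Dorsal cells at dpc16 stood at about the level of virgin ventral cells, and the sign of the difference turned with the virgin array. The median log2 fold change of dpc16 dorsal over virgin ventral was -0.13, with 13 genes higher and 33 lower. It was 0.26 within replicate number 1 and -0.62 within number 2. In 3 genes, Mad2l1, Sgo1 and Cdca8, both dorsal arrays lay above both virgin arrays, where 24.3% of all genes did so. Sgo1 was not called present on any of these arrays, and its lower dorsal and higher virgin signals were both 149. Ttk and Anln lay below, as did 1491 of 10993 genes tested. The smallest adjusted p of the members was 0.665. The comparisons share arrays and are therefore not independent of each other.

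**Figure D2:**
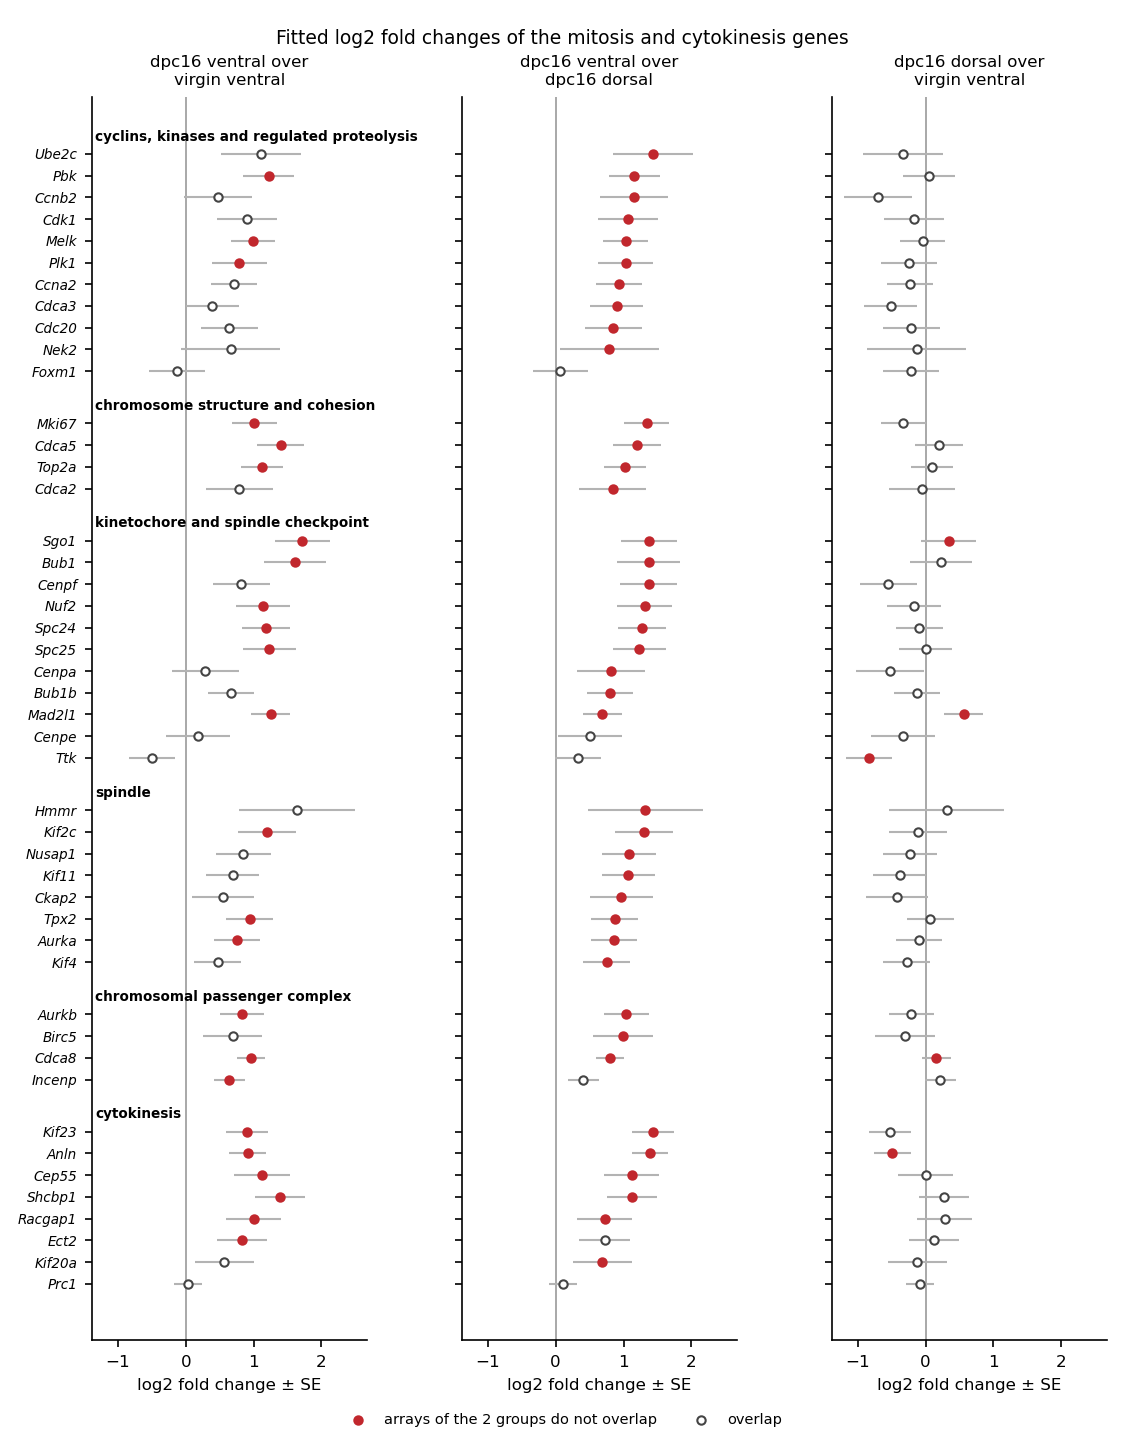
Fitted log2 fold change of each gene with its standard error (x axis) in the 3 comparisons, with genes in the same order in each panel; filled points mark genes whose arrays do not overlap between the groups compared. Filled points number 24 over virgin ventral and 40 over dpc16 dorsal cells, and dorsal over virgin values lie around 0.

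Promoters of genes expressed in G2 and M often hold a cell cycle genes homology region (CHR), a short element read by the DREAM repressor complex in resting cells and by the MuvB core with B-Myb and FOXM1 in cycling cells. Upstream CCAAT boxes bind the activator NF-Y. RefSeq promoters of build GRCm38.p6, from 250 bases before to 50 bases after an annotated start, were held for 38 of the 48 genes. None was held for Ccna2, Foxm1, Pbk, Cdca2, Spc24, Tpx2, Aurkb, Incenp, Kif20a and Shcbp1. The CHR form TTTGAA, searched on both strands, stood in 28 of the 38 promoters (73.7%), against 18.5% of 17491 protein-coding genes and 14.0% of those kept here. It lay within 50 bases of the start in 65.8% of them, against 4.6% of protein-coding genes. The second form, TTTAAA, which reads the same on both strands, stood in 23.7% against 13.8%, and CCAAT on either strand in 73.7% against 42.3%. In a list of S phase and replication genes TTTGAA stood in 11.8% of 34 promoters, and in a list of other mitosis genes in 43.5% of 69, within 50 bases of the start in 33.3%. A match is only a run of letters, and its part in the levels was not tested. The 27 tested genes with TTTGAA had a median log2 fold change of 1.03 over dorsal and 0.83 over virgin cells. For the 9 with a promoter but without TTTGAA the medians were 1.03 and 0.99. Some of these 9, such as Birc5 and Cenpe, hold TTTAAA.

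The promoters of 7 genes with TTTGAA upstream of the start are shown as examples. They come from the kinases and regulators of proteolysis, the genes of chromosome structure and cohesion, and the spindle genes. Each is given for the 130 bases before the start, read 5′ to 3′ on the strand of the gene, with TTTGAA (or TTCAAA, its other strand) and CCAAT (or ATTGG) in capitals. Cdk1, Mki67, Top2a and Cdc20 are on the minus strand at chr10:69352913-69353042, chr7:135716380-135716509, chr11:99024190-99024319 and chr4:118437344-118437473. Ube2c, Cdca5 and Kif11 are on the plus strand at chr2:164769799-164769928, chr19:6084967-6085096 and chr19:37376252-37376381.
Cdk1: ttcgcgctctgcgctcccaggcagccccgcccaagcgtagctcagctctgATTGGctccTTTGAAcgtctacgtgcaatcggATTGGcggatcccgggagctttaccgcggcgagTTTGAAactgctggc
Mki67: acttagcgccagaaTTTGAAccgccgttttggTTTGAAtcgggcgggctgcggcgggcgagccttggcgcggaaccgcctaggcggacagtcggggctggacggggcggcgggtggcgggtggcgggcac
Top2a: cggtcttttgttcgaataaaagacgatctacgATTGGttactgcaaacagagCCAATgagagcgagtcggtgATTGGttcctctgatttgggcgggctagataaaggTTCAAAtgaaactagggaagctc
Cdc20: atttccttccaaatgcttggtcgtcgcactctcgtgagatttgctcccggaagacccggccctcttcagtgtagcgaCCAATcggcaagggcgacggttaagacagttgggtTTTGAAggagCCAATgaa
Ube2c: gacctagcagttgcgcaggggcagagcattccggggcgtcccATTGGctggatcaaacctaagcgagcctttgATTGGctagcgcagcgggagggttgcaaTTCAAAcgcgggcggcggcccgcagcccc
Cdca5: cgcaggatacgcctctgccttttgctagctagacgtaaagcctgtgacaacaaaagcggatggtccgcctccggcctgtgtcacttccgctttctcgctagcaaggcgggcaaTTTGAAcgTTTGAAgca
Kif11: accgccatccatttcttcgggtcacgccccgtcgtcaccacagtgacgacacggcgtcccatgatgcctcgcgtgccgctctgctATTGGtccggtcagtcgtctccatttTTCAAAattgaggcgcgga
Within these stretches the CHR motif occurs more than once in Cdk1, Mki67 and Cdca5, and the stretches of Mki67 and Cdca5 hold no CCAAT. In other genes the motif lay after the start, and 30 bases around it are shown for Plk1 (plus strand, chr7:122159453-122159482), Aurka (minus strand, chr2:172370521-172370550) and Kif23 (minus strand, chr9:61946780-61946809).
Plk1: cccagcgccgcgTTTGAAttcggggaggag
Aurka: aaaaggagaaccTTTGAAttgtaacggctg
Kif23: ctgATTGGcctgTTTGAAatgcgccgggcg

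**Figure D3:**
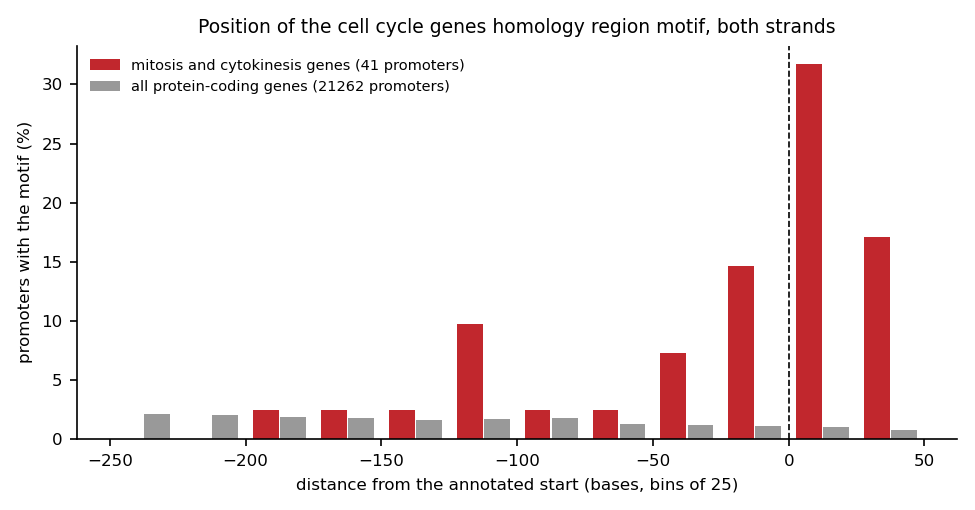
Share of promoters that hold the CHR motif on either strand (y axis, percent) by distance of the motif from the annotated start (x axis, bins of 25 bases), for 41 promoters of the mitosis and cytokinesis genes (some genes have more than 1) and 21262 of protein-coding genes. The share is highest in the 25 bases from the start on, at 31.71% against 1.03%.

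Among kinases, cyclins and regulators of proteolysis, 11 genes were tested. All 11 had the higher mean over dorsal cells (median 1.03) and 10 over virgin cells (median 0.71), with groups apart in 10 over dorsal and 3 over virgin cells, where 13.1% and 23.8% of all genes were apart and higher. Cdk1, the kinase that drives entry into mitosis, had signals of 243 and 661 in virgin ventral, 333 and 380.0 in dpc16 dorsal and 564 and 995 in dpc16 ventral cells. The dpc16 ventral arrays were above the dorsal ones, while virgin replicate 2 lay above dpc16 ventral replicate 1. The log2 fold change was 1.07 ± 0.44 (SE) over dorsal cells (adjusted p = 0.927) and 0.90 ± 0.44 over virgin cells (adjusted p = 0.473). Ccna2, cyclin A2, had signals of 489.8 and 843, 442 and 683, and 813 and 1361 in the same order, and its dpc16 ventral arrays again lay above the dorsal ones and overlapped the virgin ones. Plk1, the polo-like kinase of centrosome maturation and mitotic exit, stood at 106 and 246, 118 and 157, and 247 and 315. Its dpc16 ventral arrays were above all others, with virgin replicate 2 just under the lower one. Ccnb1 was named by no probe set in the annotation used and has no value here.

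The anaphase-promoting complex tags securin and cyclin B for destruction. Cdc20, its mitotic activator, had signals of 808 and 2096 in virgin ventral, 1016 and 1248 in dpc16 dorsal and 1511 and 2726 in dpc16 ventral cells. Ube2c, the ubiquitin-conjugating enzyme of the complex, had signals of 149 and 556, 322 and 163, and 450.5 and 860.1. For both genes the dpc16 ventral arrays lay above the dorsal ones and overlapped the virgin ones. The log2 fold change over dorsal cells was 0.85 ± 0.42 (SE) for Cdc20. It was 1.44 ± 0.59 for Ube2c, with adjusted p = 0.927. Without virgin replicate 1 the value of Cdc20 over virgin cells turned from 0.64 to -0.05.

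Pbk and Melk, kinases that are abundant in dividing and progenitor cells, were higher on both dpc16 ventral arrays than on any other. Pbk had signals of 427 and 829.5, 501 and 762, and 1007 and 1906, with log2 fold changes of 1.22 ± 0.38 (SE) over virgin (adjusted p = 0.276, and 0.0280 with the block) and 1.16 ± 0.38 over dorsal cells (adjusted p = 0.766). Melk had signals of 148 and 271, 178 and 213, and 338 and 472, about 2-fold above each group (1.99 and 2.04). Foxm1, the transcription factor that activates many of the other genes on the list, did not share their pattern. Its signals were 251 and 395 in virgin ventral, 177 and 419.8 in dpc16 dorsal and 249 and 331 in dpc16 ventral cells, so all groups overlapped. The log2 fold change was -0.13 ± 0.41 over virgin cells (adjusted p = 0.933) and 0.07 ± 0.41 over dorsal cells (adjusted p = 1.0). A second detected probe set of Foxm1 stood at -0.44 and -0.67.

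The 4 genes of chromosome structure and cohesion had medians of 1.07 over virgin and 1.11 over dorsal cells. Mki67 encodes Ki67, the proliferation marker that coats mitotic chromosomes. Its signals were 865 and 1762 in virgin ventral, 832 and 1163 in dpc16 dorsal and 2078 and 2982 in dpc16 ventral cells. Both dpc16 ventral arrays exceeded the other 4, and the log2 fold change was 1.34 ± 0.33 (SE) over dorsal cells (adjusted p = 0.440) and 1.01 ± 0.33 over virgin cells (adjusted p = 0.298). Blocking on the replicate number gave adjusted p = 0.0367 and 0.0484 in limma. Top2a, the topoisomerase that untangles sister chromatids, stood at 754 and 1291, 919 and 1221, and 1684 and 2748. Cdca5, sororin, which protects sister cohesion, stood at 234 and 363, 264 and 427, and 583 and 1017. Both were highest on the dpc16 ventral arrays, Top2a at 2.18-fold and Cdca5 at 2.65-fold over virgin cells (adjusted p = 0.248 and 0.218, and 0.0280 and 0.0260 with the block).

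Kinetochore and checkpoint genes had the widest spread of values, from -0.50 to 1.72 over virgin cells in 11 genes tested, with a median of 1.14 over virgin and 1.23 over dorsal cells. Bub1, a checkpoint kinase at the kinetochore, had signals of 57.8 and 147 in virgin ventral, 115 and 103 in dpc16 dorsal and 219.9 and 359.8 in dpc16 ventral cells. These are 3.05-fold over virgin (adjusted p = 0.248) and 2.59-fold over dorsal cells (adjusted p = 0.771). Mad2l1, which encodes the checkpoint inhibitor of Cdc20, had signals of 362 and 617, 723 and 672, and 903 and 1403. It was higher in both dpc16 groups than in virgin cells, at 0.56 in dorsal and 1.25 ± 0.29 (SE) in dpc16 ventral cells (adjusted p = 0.187). Spc24, a subunit of the microtubule-binding Ndc80 complex, stood at 207 and 422, 288 and 269, and 546 and 828, with the dpc16 ventral arrays above all others.

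Detection limited some of these genes. Sgo1, shugoshin, the guardian of centromeric cohesion, was present on the dpc16 ventral arrays only, at 262 and 595, and not called present at 96.2 and 149 in virgin and 154 and 149 in dorsal cells. Its fitted fold was 3.30 over virgin and 2.60 over dorsal cells (adjusted p = 0.188 and 0.644 in limma). Nuf2, another Ndc80 complex subunit, was likewise present on the dpc16 ventral arrays only, with fitted folds of 2.21 and 2.49. These folds are set against signals that were not called present, and they are estimates and not lower bounds. Ndc80 itself was present on 2 arrays of different groups, with signals of 41.3 and 91.4, 9.32 and 75.7, and 73.8 and 146, and was not tested. Of the 46 genes 41 were present on all arrays, and among these 39 were higher over virgin and 41 over dorsal cells, with medians of 0.85 and 1.03. The 4 genes that passed the filter through the dpc16 ventral arrays alone were Nek2, Nuf2, Sgo1 and Kif20a, and without them the medians were 0.84 and 1.03.

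Ttk, the checkpoint kinase also called Mps1, stood apart and was singled out after its values were seen. Its signals were 420.5 and 665 in virgin ventral, 356 and 248 in dpc16 dorsal and 286 and 489 in dpc16 ventral cells. It was the member with the lowest value over virgin cells, at a log2 fold change of -0.50 ± 0.34 (SE) with an adjusted p of 0.614, and both dorsal arrays were below both virgin arrays.

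The 8 spindle genes were all higher over both groups, with medians of 0.81 over virgin and 1.02 over dorsal cells. None overlapped with the dorsal arrays, where 13.1% of all genes were apart and higher. Kif2c, a kinesin that depolymerises microtubules at centromeres, had signals of 97.7 and 266 in virgin ventral, 136 and 164 in dpc16 dorsal and 331 and 414 in dpc16 ventral cells. Its log2 fold change was 1.20 ± 0.43 (SE) over virgin (adjusted p = 0.350) and 1.30 ± 0.43 over dorsal cells (adjusted p = 0.766). Tpx2, the activator of the spindle pole kinase Aurka, stood at 105 and 191, 158 and 140, and 231 and 319. Aurka itself stood at 88.4 and 139, 93.7 and 114, and 171 and 206. For all of these the dpc16 ventral arrays were above the other 4, and their log2 fold changes over dorsal cells ran from 0.86 to 1.30.

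The chromosomal passenger complex corrects faulty attachments and then moves to the midzone. Its kinase, Aurkb, had signals of 128 and 217 in virgin ventral, 142 and 147 in dpc16 dorsal and 246 and 359 in dpc16 ventral cells (1.78-fold and 2.06-fold over virgin and dorsal; adjusted p = 0.392 and 0.751). Birc5, survivin, stood at 163 and 452, 230.4 and 211, and 356 and 538, and its dpc16 ventral arrays overlapped the virgin ones. Cdca8, borealin, had the virgin arrays closest together of all 46 genes, at 876 and 995 in virgin ventral, 1050 and 1032 in dpc16 dorsal and 1492 and 2196 in dpc16 ventral cells. Its log2 fold changes were 0.96 ± 0.21 (SE) over virgin (adjusted p = 0.148) and 0.80 ± 0.21 over dorsal cells (adjusted p = 0.496). Incenp, the scaffold of the complex, stood at 1322 and 1589, 1464 and 1952, and 1836 and 2766, with overlap of the dorsal and dpc16 ventral arrays. A second Incenp probe set, present on all 6 arrays, stood at 255 and 453, 284 and 327, and 430 and 554. There the dpc16 ventral arrays lay above the dorsal ones and overlapped the virgin ones. On the probe sets used, the subunits of the complex differed in how far the virgin arrays lay apart, from 1.14-fold for Cdca8 to 2.77-fold for Birc5. Further detected probe sets of Cdca8 had virgin signals of 626 and 596, and of 111 and 150.1.

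**Figure D4:**
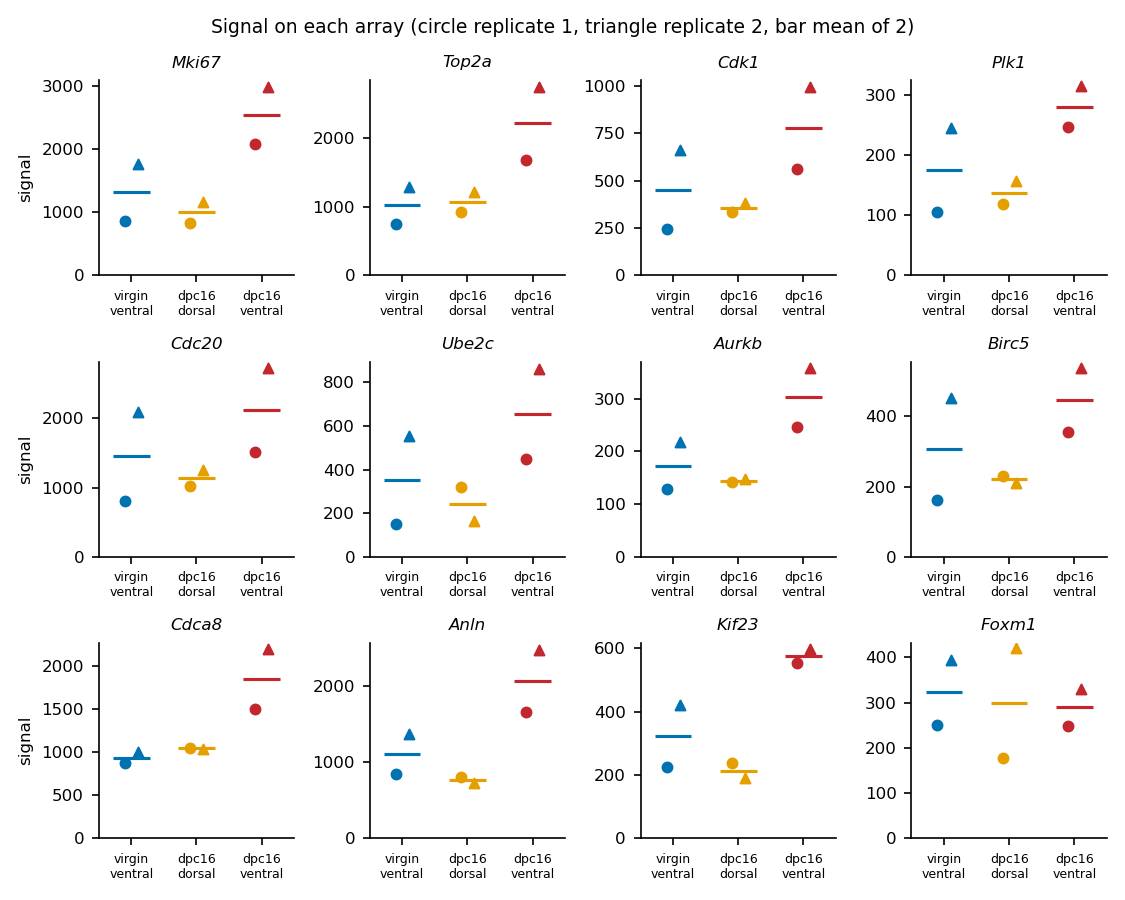
Signal of 12 named genes on each array (y axes from 0, arbitrary units; circles replicate 1, triangles replicate 2, bars the mean of 2 arrays), in virgin ventral, dpc16 dorsal and dpc16 ventral cells. In Mki67, Top2a, Plk1, Aurkb, Cdca8, Anln and Kif23 both dpc16 ventral arrays lie above the other 4; in Cdk1, Cdc20, Ube2c and Birc5 virgin replicate 2 lies above the lower of them, and in Foxm1 all groups overlap.

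Among 8 genes of cytokinesis the medians were 0.91 over virgin and 0.92 over dorsal cells, with 6 genes apart from each group, where 23.8% and 13.1% of all genes were. Anln, anillin, which links actin and myosin in the contractile ring, had signals of 850 and 1375 in virgin ventral, 813 and 733 in dpc16 dorsal and 1658 and 2483 in dpc16 ventral cells. Its log2 fold change was 1.39 ± 0.27 (SE) over dorsal cells (adjusted p = 0.206) and 0.91 ± 0.27 over virgin cells (adjusted p = 0.256). Kif23, the kinesin of the centralspindlin complex, had signals of 224 and 421, 237 and 190.1, and 553 and 597, or 2.70-fold over dorsal cells (adjusted p = 0.323). Shcbp1, a partner of centralspindlin, had signals of 161 and 333, 241 and 324, and 492 and 747, or 2.62-fold over virgin cells (adjusted p = 0.236, and 0.0401 with the block). All of these were higher on both dpc16 ventral arrays than on any other array. Prc1, the microtubule bundler of the central spindle, was singled out after its values were seen: it stood at 771 and 1025, 889 and 793, and 815 and 1008, with log2 fold changes of 0.03 ± 0.21 and 0.11 ± 0.21, and a second probe set gave -0.01 and 0.12.

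Further detected probe sets were available for 21 of the genes, 26 in all. Of these 23 had the sign of the probe set used over virgin cells and 24 over dorsal cells. Among the exceptions were a second probe set of Cdca3, at -0.74 and -0.51 where the one used gave 0.39 and 0.90, and a second one of Cenpe, at -1.25 over virgin cells. Probe sets that may match more than 1 transcript, by the suffix of their name, stood for 21 of the genes.

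Other cell cycle genes had smaller medians, while some of their counts were as high or higher. In a list of 80 other mitosis genes, such as condensins, centromere proteins and further kinesins, 71 were tested, and 66 were higher over virgin and 63 over dorsal cells, with medians of 0.46 and 0.37. limma called 0 in either direction, with 13 and 8 at an unadjusted p under 0.05, against 6.18% and 2.65% of all genes. Of the 71 genes 32 and 27 had no overlap of the groups and were higher, against 23.8% and 13.1% of all genes. The smallest p over virgin cells belonged to Cks1b and Cks2, which bind Cdk1, and to Smc2, the condensin subunit (log2 fold changes of 0.55, 0.68 and 1.03). Of 43 genes of S phase and replication tested, 43 were higher over virgin and 42 over dorsal cells, with medians of 0.62 and 0.43 and 0 called. In 31 of them both dpc16 ventral arrays lay above both virgin arrays, where 23.8% of all genes did so. In 13 they lay above both dorsal arrays, against 13.1% of all genes. At an unadjusted p under 0.05 there were 22 and 8, against 6.18% and 2.65% of all genes. Over virgin cells the S phase share without overlap is larger than that of the mitosis and cytokinesis genes (24 of 46). Over dorsal cells it is smaller (40 of 46). The virgin arrays differed by a median of 0.33 in the S phase genes and 0.49 in the other mitosis genes, against 1.02 in the mitosis and cytokinesis genes. The dorsal arrays differed by 0.52 in the S phase genes and 0.14 in the mitosis and cytokinesis genes. Whether the lists differ from each other was not tested.

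Of 21 inhibitors, pocket proteins and partners tested, the medians were 0.04 over virgin and 0.09 over dorsal cells, and 0 were called. Over virgin cells 4 were higher and 4 lower without overlap, as were 2616 and 2173 of 10993 genes tested. Over dorsal cells 6 were higher and 3 lower, as were 1440 and 2163 of all genes. Cdkn2b, the inhibitor p15 of the G1 kinases, was the gene of the 21 with the smallest adjusted p in limma over either group. It had signals of 545 and 567 in virgin ventral, 441 and 349 in dpc16 dorsal and 276 and 224 in dpc16 ventral cells. Its groups did not overlap in any comparison, with a log2 fold change of -1.16 ± 0.23 (SE) over virgin cells (adjusted p = 0.118) and -0.66 ± 0.23 over dorsal cells (adjusted p = 0.804). Mybl2, the B-Myb partner of the CHR complex, had signals of 51.4 and 88.8, 44.0 and 70.4, and 75.7 and 123, so that the dpc16 ventral arrays were above the dorsal ones.

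**Figure D5:**
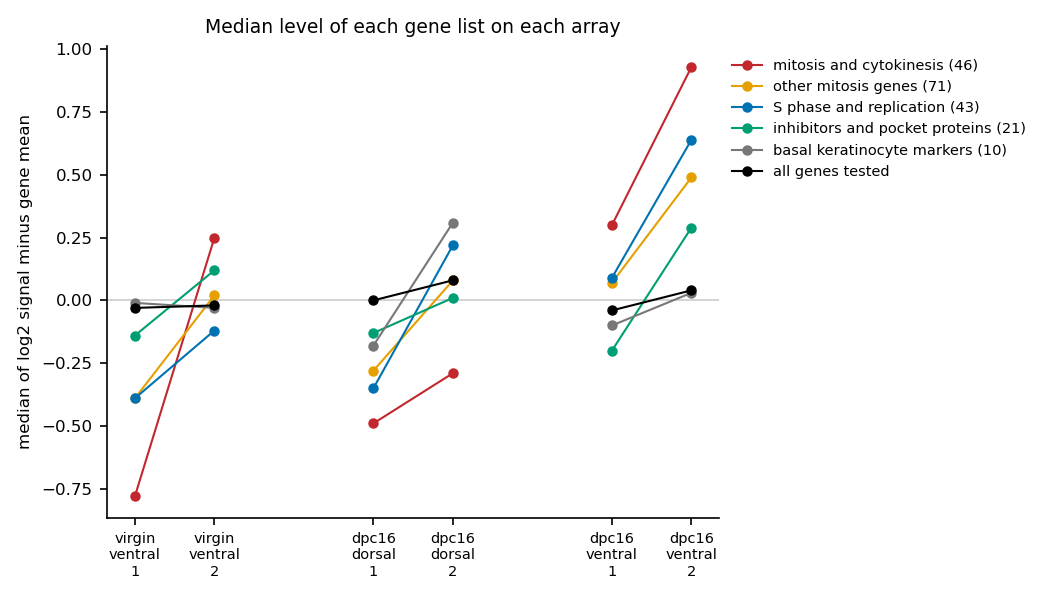
Median over the genes of each list of the log2 signal minus the mean of the gene (y axis) on each array, with lines joining the 2 arrays of a group. The mitosis and cytokinesis genes run from -0.78 on virgin replicate 1 to 0.93 on dpc16 ventral replicate 2, a wider range than any other list plotted, while all genes tested stay between -0.04 and 0.08.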

How the data were processed

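Mouse 3′ expression arrays of 45101 probe sets, 6 arrays in 3 groups, were taken with groups and replicate numbers from the labels. The deposited files give per probe set a signal intensity and a detection call. The submitters' notes on processing name Affymetrix Expression Console, version 1, and the values behave as MAS5 signals scaled by the authors to a trimmed mean of 500.0, so a change of total RNA per cell cannot be seen. A genome build for the probe sets is not given in the sources used. The series value table holds the same signals (largest relative difference 5.00e-06).

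A floor of 1 was applied to the signals before log2. The platform annotation named 1 gene for 34945 probe sets, several for 932 and none for 9160; 34741 of the former matched RefSeq (GRCm38.p6). Each gene was read from its probe set of highest mean log2 signal, and was kept if at least 1 group had it present on both arrays. Present calls numbered 21285 to 24053 per array; the number of arrays limits the precision. limma 3.58.1 (lmFit, eBayes with trend) in R 4.3.3 was fitted to all 6 arrays (3 residual degrees of freedom), with two-sided p-values, adjusted over all genes by Benjamini-Hochberg with a threshold of 0.05, and was tested on simulated data. Deviations of same-numbered arrays correlated at 0.45 between the dpc16 dorsal and dpc16 ventral groups. Between virgin ventral and these groups the correlations were 0.03 and 0.01. The labels state no pairing, so the main fit did not take the numbers as pairs, and the block was an alternative.

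The members and lists were chosen with earlier results of these data known. Named were 10 well-known members and, in each step, the 3 with the smallest p over virgin and the 1 with the smallest p over dorsal cells. Alternatives covered the block, the filter, probe set choice, floor, normalization, variance trend and each replicate left out. A further one left out replicate 2 of both dpc16 groups. Those for counts of groups without overlap were chosen after seeing the data.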

Additional observations from a re-analysis of the deposited data

How the results depend on the processing

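With the replicate number as a block, limma called 5 members higher in dpc16 ventral than in virgin ventral cells (Cdca5, Mki67, Pbk, Shcbp1 and Top2a) and 1 higher than in dpc16 dorsal cells (Mki67), where it called 0 without the block; over all genes the block gave 54 higher and 32 lower calls over virgin and 11 and 5 over dorsal cells, against 15 and 7, and 5 and 4. The labels do not say that the numbers pair the samples. With each replicate left out in turn, the median log2 fold change of the members ran from 0.39 to 1.41 over virgin ventral, from 0.69 to 1.30 over dpc16 dorsal cells, and from -0.66 to 0.36 for dorsal over virgin ventral cells. Over virgin cells Birc5 then ran from -0.05 to 1.42, Cdc20 from -0.05 to 1.33 and Foxm1 from -0.46 to 0.19, and over dorsal cells Foxm1 ran from -0.55 to 0.69; the negative values of Birc5 and Cdc20 came without virgin replicate 1. Of 740 further values of single named genes, 728 kept their sign and side of the threshold, 6 passed it under the block and 6 turned sign. Members without overlap of the groups numbered 17 to 25 over virgin and 27 to 40 over dorsal cells under other filters, probe sets, floors and quantile normalization. The lowest counts came from the 33 members left without shared probe sets. In the main setting 23.8% and 13.1% of all genes were apart and higher. The shares of all genes under the other settings are not given here, so these ranges lack a background. Arrays resolve low signals poorly, and 2 arrays a group limit every value.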
